A study of Homo sapiens with 6 samples.

Results

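The transcripts described are those of the cytosolic translation initiation and elongation factors, in RNA-seq of HCC2814 cells, a human lung squamous cell carcinoma (LUSC) line. Members were set by a rule on names, chosen with earlier results of these data known, as genes with symbols starting EIF or EEF. Of 69 such symbols, 10 were dropped (the eIF2 kinases and enzymes that modify elongation factors), and the 4E-BP genes were kept. This left 59 of the 17448 genes in the table. The series held 3 WT samples, carrying a non-targeting control guide, and 3 MLST8-KO samples, carrying a guide against MLST8. MLST8 encodes a subunit shared by the kinase complexes mTORC1 and mTORC2, and the comparison addresses what its loss changes in the transcriptome. In this line the authors reported that MLST8 loss separated mTOR from the mTORC2 subunit RICTOR but not from the mTORC1 subunit RAPTOR. Phosphorylation of AKT at the mTORC2 site fell, while that of S6K1, an mTORC1 substrate, did not change. They used the loss as a selective block of mTORC2. The guides were delivered by lentivirus with antibiotic selection, and no single-cell cloning is stated for this line. All samples were grown in DMEM with serum, and poly(A)-selected RNA was sequenced.

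Translation initiation brings the small ribosomal subunit, charged with eIF2, GTP and initiator tRNA, to the capped end of an mRNA through the eIF4F complex, and eIF3 holds the parts together. The elongation factors eEF1A and eEF2 then deliver aminoacyl-tRNA and move the ribosome along. mTORC1 is known to act on this machinery at the protein level, by phosphorylating the 4E-BP inhibitors of eIF4E, and on the translation of mRNAs that begin with a terminal oligopyrimidine (TOP) tract, among them those of several elongation factors. RNA-seq measures transcript levels and not those steps.

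Estimated counts summed to between 14381673 and 15744154 per sample, and 3 counts corresponded to between 0.185 and 0.216 CPM (counts per M reads counted, after TMM scaling). The targeted gene, MLST8, stood at 58.0, 56.9 and 60.7 CPM in the WT samples and at 25.5, 38.9 and 25.7 CPM in the MLST8-KO samples, a log2 fold change of -0.96 (SE 0.15, adjusted p = 0.00339 by edgeR's quasi-likelihood test). Summed squamous epithelial markers (KRT5, TP63 and 7 others, all detected) were 12841 to 18792 CPM in WT and 21322 to 23689 CPM in MLST8-KO samples, so that they differed between the groups without overlap. PTPRC, a leukocyte marker, reached at most 0.0721 CPM, and 3 endothelial markers summed to at most 3.51 CPM. Fibroblast markers summed to 31.5 to 36.4 CPM, nearly all of it COL1A1, and immune markers to 40.3 to 77.9 CPM, nearly all of it CD68. MLST8-KO replicate 1 stood apart in 6 liver genes, which summed to 234 CPM there and to 0.505 to 6.50 CPM in the other 5 samples. Counts with and without this sample are therefore given. The part of these differences in the results that follow was not tested.

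Of the 59 factors, 56 passed the filter on low counts. In MLST8-KO cells 20 of these were lower and 3 higher, and 33 did not pass the threshold, an adjusted p under 0.05 over all 12951 genes tested. Lower factors made up 35.7% of those tested, where 15.7% of all genes tested were lower. Higher factors made up 5.36%, where 16.3% of all genes were higher. The factors had a median log2 fold change of -0.15, and all genes had a median of 0.005. The log2 fold change was below 0 in 43 of 56 factors (76.8%, against 49.5% of all genes). In 27 factors (48.2%) every MLST8-KO sample was below every WT sample, which held for 24.2% of all genes, and in 7 factors (12.5%) every MLST8-KO sample was above, against 24.8% of all genes. The sizes were moderate: the log2 fold changes of the lower factors ran from -0.80 to -0.29, and those of the higher factors from 0.40 to 0.44. The authors' western blots of this line numbered several control-guide and several MLST8-guide samples, and whether the sequenced samples match them is not stated. The samples of a group are separate by label only, and nothing states that they came from separate cultures, so the p-values measure the spread between these samples.

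**Figure D1:**
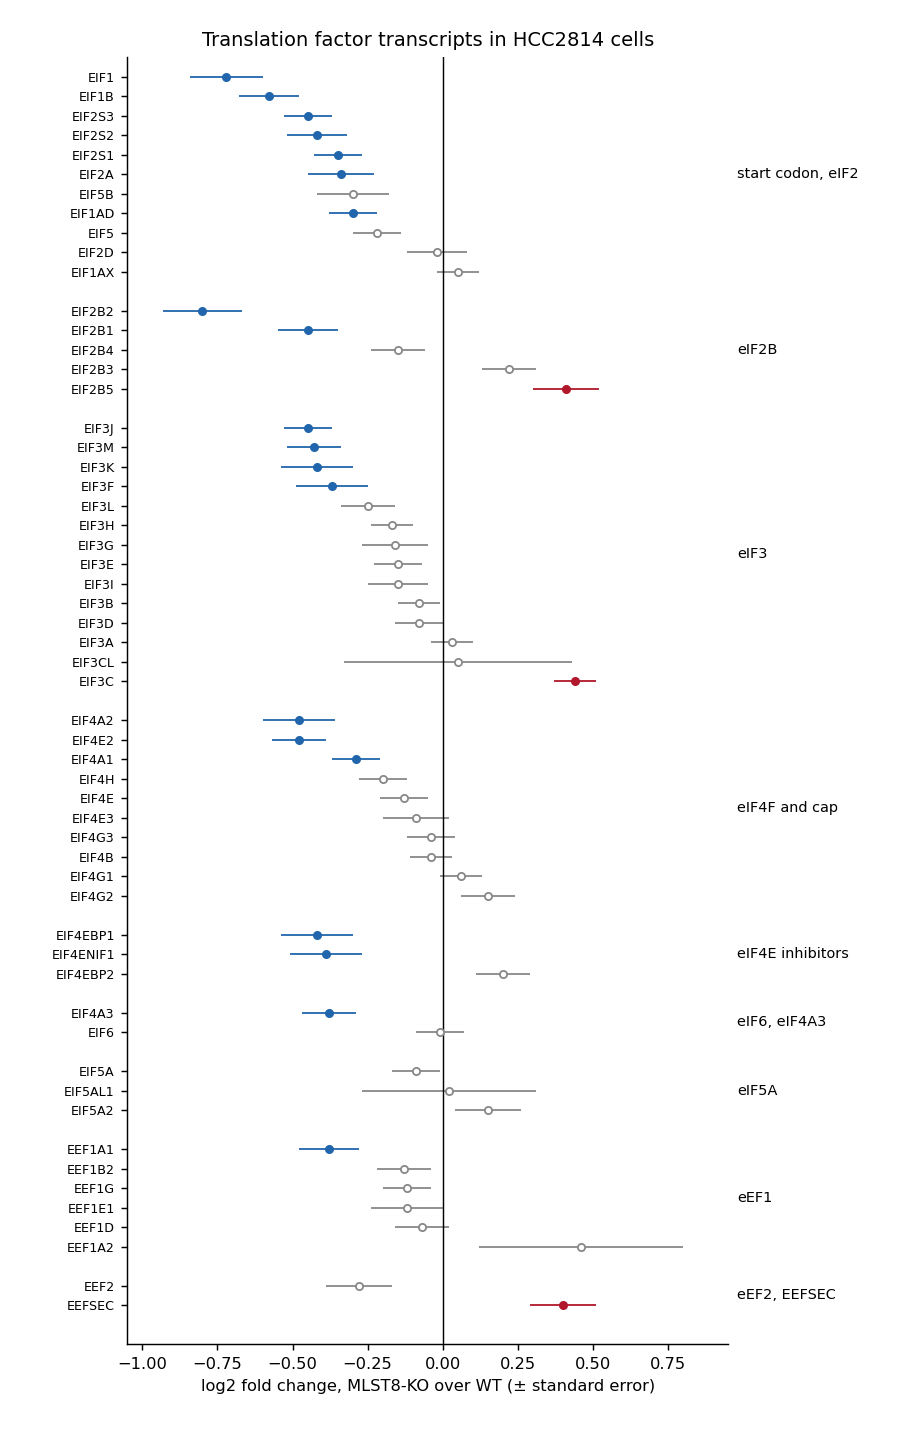
Log2 fold change of each of the 56 tested factors, MLST8-KO over WT, with its standard error, grouped by role. Filled blue points are the 20 lower factors, filled red points the 3 higher factors, and open grey points the 33 that did not pass the threshold.

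**Figure D2:**
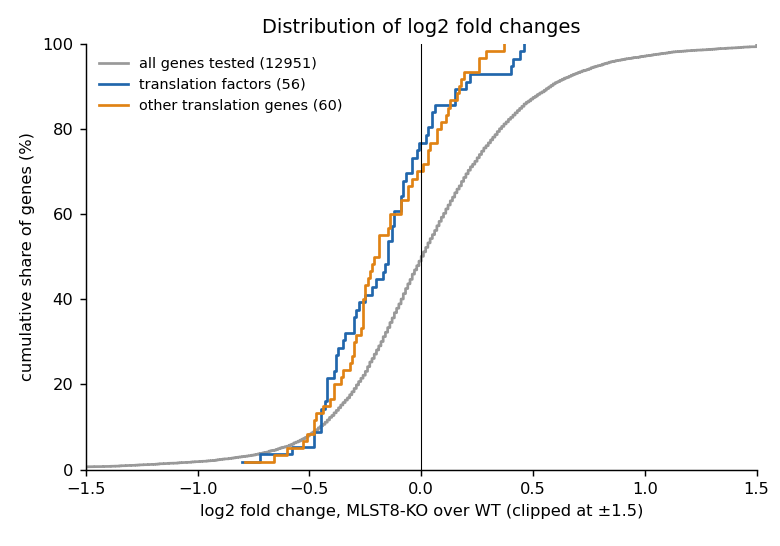
Cumulative share of genes (percent, vertical axis) against the log2 fold change, MLST8-KO over WT (clipped at ±1.5), for the 56 translation factors, the 60 other translation genes described at the end of the text, and all 12951 genes tested. The curve of the factors crosses 0 at 76.8%, against 49.5% for all genes.

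How many factors passed depended on single samples and on the scale. Without MLST8-KO replicate 1, 11 factors were lower and 1 higher, when 6.50% of all genes were lower and 7.49% higher. Leaving out MLST8-KO replicate 2 left 9 lower and 3 higher factors (8.35% and 8.69% of all genes), and leaving out WT replicate 2 left 11 lower and 1 higher (7.97% and 7.41%). On log2(TPM + 1), which divides by gene length and is not TMM scaled, limma called 12 factors lower and 4 higher, against 8.76% and 21.5% of all genes. On that scale the median log2 fold change was -0.04 for the factors and 0.092 for all genes. Upper quartile scaling gave 18 lower and 4 higher factors, against 12.0% and 19.7% of all genes. No called factor turned sign in any of the 15 alternative fits. A core of 9 factors passed in every one of them: EIF1, EIF1B, EIF2S3, EIF2B1, EIF2B2, EIF3J, EIF3M and EIF4E2, which were lower, and EIF3C, which was higher.

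WT replicate 3 had the highest of the WT levels in all 20 lower factors, which was the case in 78.3% of the 2030 lower genes and in 39.5% of all genes tested. WT replicate 1 had the lowest WT level in 17 of the 20, and in 1588 of the 2030 lower genes. Summed squamous markers were lowest in WT replicate 3 and, among the WT samples, highest in WT replicate 1. Without WT replicate 3, 16 factors were lower and 3 higher (11.9% and 12.5% of all genes), and the part of single WT samples in the other calls was not tested further.

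**Figure D3:**
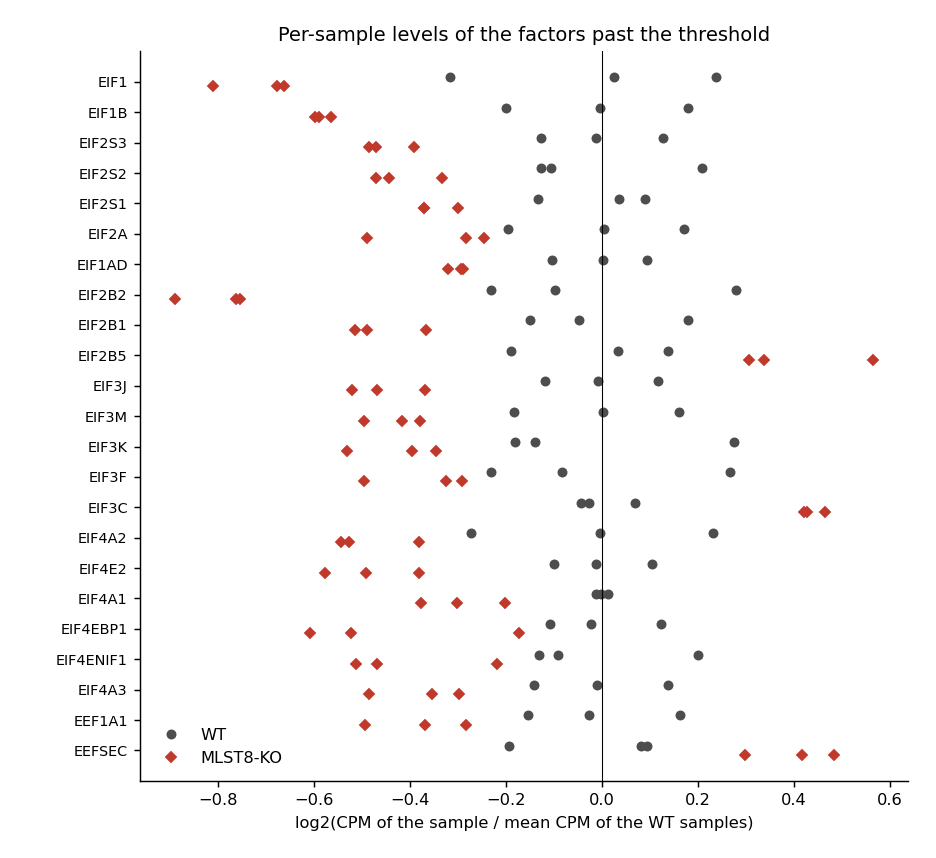
Level of each of the 23 factors past the threshold in every sample, as the log2 ratio of its CPM to the mean CPM of the WT samples (grey circles, WT; red diamonds, MLST8-KO; 3 samples each). In all 23 factors the samples of the 2 groups do not overlap. They were picked by a test of these same values, so the gap is no separate support. The WT samples spread more widely than the MLST8-KO samples in factors such as EIF1 and EIF4A2.

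Windows of 30 bases around the RefSeq transcription start (GRCh38.p14) show how some lower transcripts and some that did not pass begin. They are given for some factors with a pyrimidine run there and for 2 of the most lowered factors without one. Each window holds 15 bases before and 15 from the start, on the gene's strand. Capitals mark the longest run of C and T that begins with C within 5 bases of the start, where it has at least 5 bases. Other factors that did not pass, such as EEF1B2 and EIF4G2, also held runs, of 16 and 7 bases at an annotated start, and are not shown. The windows are examples, and their numbers do not compare the classes. The first 5 are lower in MLST8-KO cells, the next 2 did not pass the threshold, and the last 2, without a run, are lower.
EEF1A1 (chr6:73521018-73521047, minus): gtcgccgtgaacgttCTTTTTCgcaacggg
EIF3F (chr11:7987322-7987351, plus): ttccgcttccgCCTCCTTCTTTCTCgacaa
EIF2S3 (chrX:24054941-24054970, plus): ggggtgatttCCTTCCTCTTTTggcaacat
EIF3M (chr11:32583816-32583845, plus): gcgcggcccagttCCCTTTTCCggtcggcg
EIF4A2 (chr3:186783562-186783591, plus): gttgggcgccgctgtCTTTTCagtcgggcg
EEF2 (chr19:3985449-3985478, minus): gttgacgtcagcgttCTCTTCCgccgtcgt
EIF4B (chr12:53006441-53006470, plus): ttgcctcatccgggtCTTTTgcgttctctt
EIF2B2 (chr14:75002906-75002935, plus): gacctcgcccgccccggaagtgcaaactgt
EIF1B (chr3:40309692-40309721, plus): tcggccattttgtgcgagaagccgcagcgc

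Promoter sequence was matched for 49 of the 59 factors, with 66 annotated starts. Such a run was found at 24 of these 66 starts (36.4%), where 21.1% of 35116 starts of all genes and 22.1% of 15018 starts of genes tested held one. Among the 18 lower factors with sequence it was found at 10 of 19 starts (52.6%), and among the 25 factors that did not pass at 10 of 40 starts (25%). These shares count starts and not genes, and the factors that did not pass had more starts per gene, so they do not compare genes. Some runs, such as that of EIF1, also lie wholly before the annotated start. The difference between these shares was not tested. The letters CACGTG, the same on both strands, were found in 12 of the 66 promoter sequences of the factors (18.2%), which reach from 250 bases before to 50 bases after the start, in 7.26% of those of all genes and in 9.27% of those of genes tested. These matches describe letters and are not binding sites. From a list of 9 factors known as TOP mRNAs (EEF1A1, EEF1B2, EEF1D, EEF1G, EEF2, EIF3E, EIF3F, EIF3H and EIF4B), 9 had a log2 fold change below 0 and 2, EEF1A1 and EIF3F, passed the threshold. In mean TPM, EEF1D (408 in WT, 428 in MLST8-KO cells) and EIF4B (133 and 139) lay the other way. The median of these 9 was -0.15, equal to the median of the 47 other factors, of which 18 were lower and 3 higher. Beside the 2 TOP mRNAs called, 15.7% of all genes tested were lower. EEF1A1 passed in 3 and EIF3F in 1 of the 6 fits that left out a sample, and neither passed on the TPM scale.

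The factors that find the start codon held the most lower members by number: 7 of 11 tested were lower and 0 higher, at a median of -0.34 on the log2 scale. Of all genes tested, 15.7% were lower and 16.3% higher, and the counts of this and the following groups stand beside those shares. EIF1 (chr17:41688885-41692668), which keeps the scanning ribosome open until the right codon is reached, stood at 870, 1102 and 1276 CPM in WT and at 677, 617 and 684 CPM in MLST8-KO samples. The highest MLST8-KO sample was below the lowest WT sample, although the WT samples spread widely. EIF1 had a log2 fold change of -0.72 (SE 0.12, adjusted p = 0.00433). Its close paralog EIF1B (chr3:40309684-40312424) had 45.8, 52.5 and 59.6 CPM in WT and 35.0, 35.6 and 34.8 CPM in MLST8-KO cells, with a log2 fold change of -0.58 (SE 0.10, adjusted p = 0.00448). The MLST8-KO samples of EIF1B were within 1 CPM of each other and all below WT.

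All 3 subunits of eIF2, which carries the initiator tRNA, were lower. EIF2S1 (chr14:67359997-67386516), the alpha subunit that stress kinases phosphorylate, measured 185, 208 and 216 CPM in WT and 165, 157 and 157 CPM in MLST8-KO samples (log2 fold change -0.35, SE 0.08, adjusted p = 0.0114). EIF2S2 (chr20:34088298-34112332), the beta subunit, measured 283, 279 and 352 CPM against 224, 220 and 242 CPM (-0.42, SE 0.10, adjusted p = 0.0129). EIF2S3 (chrX:24054716-24077971), the gamma subunit that binds GTP and tRNA, measured 731, 792 and 872 CPM against 576, 609 and 570 CPM (-0.45, SE 0.08, adjusted p = 0.00560). The groups overlapped in none of the 3 genes, and the log2 fold changes lay within 0.10 of each other between the alpha and gamma subunits. EIF2S1 lost its call on the TPM scale and without WT replicate 2, and EIF2S2 lost it without MLST8-KO replicate 1 or 2.

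The remaining lower members were EIF2A (chr3:150546678-150584242), a factor able to deliver initiator tRNA in the absence of eIF2, and EIF1AD (chr11:65996545-66002176), a protein named for a domain like that of eIF1A. EIF2A had 121, 139 and 156 CPM in WT and 98.8, 117 and 114 CPM in MLST8-KO cells, a log2 fold change of -0.34 (SE 0.11, adjusted p = 0.0361). EIF1AD had 43.9, 47.3 and 50.4 CPM in WT and 38.6, 38.5 and 37.8 CPM in MLST8-KO cells, a log2 fold change of -0.30 (SE 0.08, adjusted p = 0.0231). Neither overlapped between groups, but each passed in only 1 of the 6 fits that left out a sample and not on the TPM scale. EIF2A also missed the threshold under upper quartile scaling (adjusted p = 0.0546). The 4 members that did not pass were EIF5B, EIF5, EIF2D and EIF1AX, with log2 fold changes of -0.30, -0.22, -0.02 and 0.05.

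The 5 subunits of eIF2B, the exchange factor that recharges eIF2 with GTP and that the integrated stress response inhibits, did not change together: 2 were lower, 1 was higher and 2 did not pass. EIF2B2 (chr14:75002911-75012366), the regulatory beta subunit, had the lowest log2 fold change of the 56 tested factors, -0.80 (SE 0.13, adjusted p = 0.00352). It measured 50.3, 55.2 and 71.7 CPM in WT and 31.9, 35.0 and 34.8 CPM in MLST8-KO samples. The highest MLST8-KO value was well under the lowest WT value. EIF2B1 (chr12:123620406-123633766), the regulatory alpha subunit, measured 81.3, 75.7 and 95.1 CPM in WT and 58.8, 59.9 and 65.2 CPM in MLST8-KO samples (log2 fold change -0.45, SE 0.10, adjusted p = 0.00889). EIF2B5 (chr3:184135038-184146112), the catalytic epsilon subunit, measured 63.2, 58.8 and 50.4 CPM in WT and 85.0, 72.6 and 71.1 CPM in MLST8-KO samples (log2 fold change 0.41, SE 0.11, adjusted p = 0.0176). Every MLST8-KO sample was above every WT sample in EIF2B5, with MLST8-KO replicate 1 the highest, and the call was lost without that sample or without WT replicate 2. The log2 fold changes of EIF2B5 and EIF2B2 lay 1.21 apart. EIF2B3, whose product pairs with epsilon in the catalytic part, had a log2 fold change of 0.22 (adjusted p = 0.0861), and it passed under upper quartile scaling and on the TPM scale. EIF2B4 had one of -0.15 (adjusted p = 0.216). Per transcript length, mean levels in WT were 87.1 ± 8.45 TPM for EIF2B1, 75.7 ± 12.6 TPM for EIF2B2 and 42.0 ± 3.15 TPM for EIF2B5 (SD, n = 3). In MLST8-KO cells they were 68.5 ± 2.46, 47.0 ± 2.90 and 59.6 ± 7.12 TPM, so that EIF2B5 lay below EIF2B2 in WT means and above it in MLST8-KO means.

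The eIF3 complex, the scaffold of initiation, had 14 tested genes, of which 4 were lower, 1 was higher and 9 did not pass. EIF3M (chr11:32583798-32606262), a peripheral subunit, stood at 457, 520 and 580 CPM in WT and 399, 368 and 389 CPM in MLST8-KO samples, a log2 fold change of -0.43 (SE 0.09, adjusted p = 0.00927). EIF3J (chr15:44537057-44563029), a loosely bound subunit, stood at 214, 231 and 252 CPM against 168, 162 and 180 CPM, a log2 fold change of -0.45 (SE 0.08, adjusted p = 0.00560). Both kept the threshold in every alternative fit, and their groups were separated by a clear gap. EIF3K (chr19:38619082-38636955), another peripheral subunit, stood at 167, 172 and 229 CPM against 149, 131 and 144 CPM (-0.42, SE 0.12, adjusted p = 0.0242). EIF3F (chr11:7970251-8001862), a subunit with an MPN domain, stood at 269, 298 and 380 CPM against 252, 224 and 258 CPM (-0.37, SE 0.12, adjusted p = 0.0426). In these 2 genes WT replicate 3 was far above the other WT samples, and the gap between groups was narrow in EIF3F. EIF3F passed in 1 and EIF3K in 3 of the 6 fits that left out a sample, and neither passed on the TPM scale, nor EIF3F under upper quartile scaling (adjusted p = 0.0671).

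EIF3C (chr16:28688558-28735730), a core subunit, was the only eIF3 gene called higher. It measured 187, 202 and 189 CPM in WT and 266, 259 and 258 CPM in MLST8-KO samples, with a log2 fold change of 0.44 (SE 0.07, adjusted p = 0.00385). All MLST8-KO samples were above all WT samples, with little spread in either group. EIF3C has a near-identical copy, EIF3CL, between which the counting could split reads. EIF3CL measured 36.3, 13.0 and 26.8 CPM in WT and 13.5, 26.3 and 39.4 CPM in MLST8-KO samples, and the groups overlapped. With the counts of both genes summed, the levels were 223, 215 and 216 CPM against 280, 285 and 297 CPM, and the log2 fold change was 0.40 (SE 0.07, adjusted p = 0.00470). The log2 fold changes of EIF3C and EIF3M, which belong to the same complex, lay 0.87 apart. The other core subunits EIF3A and EIF3B had log2 fold changes of 0.03 and -0.08. The 6 other subunits that did not pass (EIF3D, EIF3E, EIF3G, EIF3H, EIF3I and EIF3L) ran from -0.25 to -0.08.

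Of 10 tested genes of the cap-binding complex eIF4F and its relatives, 3 were lower and 0 higher, at a median of -0.11 on the log2 scale. The lower genes were both cytosolic eIF4A helicases, which unwind the leader of the mRNA, and EIF4E2, a cap-binding protein that represses translation. EIF4A1 (chr17:7572706-7579005) measured 1222, 1231 and 1244 CPM in WT and 1000, 949 and 1071 CPM in MLST8-KO samples, a log2 fold change of -0.29 (SE 0.08, adjusted p = 0.0173). The WT samples of EIF4A1 were nearly equal and all above MLST8-KO. EIF4A2 (chr3:186783205-186789900) measured 641, 772 and 909 CPM in WT and 594, 537 and 531 CPM in MLST8-KO samples, a log2 fold change of -0.48 (SE 0.12, adjusted p = 0.0135). Its lowest WT sample was close to its highest MLST8-KO sample. EIF4A1 lost its call on the TPM scale and in 3 fits that left out a sample, and EIF4A2 in 2 such fits. EIF4E2 (chr2:232550052-232583644) measured 62.0, 65.8 and 71.4 CPM against 47.2, 44.5 and 51.0 CPM, a log2 fold change of -0.48 (SE 0.09, adjusted p = 0.00534), and kept the threshold in every alternative fit.

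The cap-binding protein itself and the main scaffold did not pass the threshold. EIF4E measured 61.9, 69.4 and 66.6 CPM in WT and 61.4, 59.2 and 60.3 CPM in MLST8-KO samples (log2 fold change -0.13, SE 0.08, adjusted p = 0.225). EIF4G1, which bridges eIF4E, eIF4A and eIF3, measured 871, 889 and 869 CPM against 909, 930 and 899 CPM (0.06, SE 0.07, adjusted p = 0.534). All MLST8-KO samples were below WT in EIF4E and above it in EIF4G1, by less than the test called. The others (EIF4B, EIF4H, EIF4E3, EIF4G2 and EIF4G3) ran from -0.20 to 0.15.

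Of the inhibitors of eIF4E, 2 of 3 tested were lower. EIF4EBP1 (chr8:38030341-38060365), which encodes 4E-BP1, the best known mTORC1 substrate in translation, measured 115, 122 and 135 CPM in WT and 86.3, 81.4 and 110 CPM in MLST8-KO samples, with a log2 fold change of -0.42 (SE 0.12, adjusted p = 0.0219). MLST8-KO replicate 3 was close to the lowest WT sample, and the call was lost without WT replicate 2, MLST8-KO replicate 1 or MLST8-KO replicate 2. EIF4ENIF1 (chr22:31436977-31496108), which encodes the eIF4E transporter 4E-T, measured 39.1, 38.0 and 47.8 CPM in WT and 30.1, 29.2 and 35.8 CPM in MLST8-KO samples (-0.39, SE 0.12, adjusted p = 0.0289), and passed in 2 of the 6 fits that left out a sample and not on the TPM scale. EIF4EBP2 went the other way without passing, at 84.4, 85.8 and 70.7 CPM in WT and 90.6, 97.1 and 88.6 CPM in MLST8-KO samples (0.20, SE 0.09, adjusted p = 0.127). EIF4EBP3 was at 0 in 4 samples and reached at most 0.361 CPM, and 73.4% of its exonic bases are shared with the read-through gene ANKHD1-EIF4EBP3. Per length, EIF4EBP1 stood at 314 ± 16.7 TPM in WT and 252 ± 36.0 TPM in MLST8-KO cells, far above EIF4EBP2 (19.4 ± 2.41 and 24.0 ± 1.82 TPM) and EIF4E (10.4 ± 0.815 and 10.3 ± 0.331 TPM, all SD, n = 3). The log2 ratio of the summed 4E-BP TPM to EIF4E TPM was 5.03, 4.87 and 5.10 in WT and 4.59, 4.63 and 4.98 in MLST8-KO samples. The groups overlapped, and the difference in means of -0.269 was not past the threshold (two-sided exact permutation p = 0.2, where 3 against 3 samples allow no p under 0.1). In CPM, where EIF4EBP2 weighs more, the difference was -0.0196 (two-sided exact permutation p = 0.8).

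EIF4A3 (chr17:80135214-80147183), a helicase of the exon junction complex that carries the eIF4A name, measured 117, 128 and 142 CPM in WT and 105, 92.2 and 101 CPM in MLST8-KO samples, a log2 fold change of -0.38 (SE 0.09, adjusted p = 0.0138). It did not overlap between groups, but the call was lost without WT replicate 2 (adjusted p = 0.0533) or MLST8-KO replicate 2 (adjusted p = 0.0598). EIF6, which keeps the ribosomal subunits apart, had a log2 fold change of -0.01. No eIF5A gene passed the threshold. EIF5A, whose hypusine-bearing product relieves stalled ribosomes, measured 669, 590 and 594 CPM in WT and 563, 557 and 623 CPM in MLST8-KO samples, and the groups overlapped (log2 fold change -0.09, SE 0.08, adjusted p = 0.435, and 0.02 on the TPM scale). EIF5A2 and EIF5AL1 had log2 fold changes of 0.15 and 0.02.

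Among the elongation factors, EEF1A1 (chr6:73515750-73523797), which delivers aminoacyl-tRNA to the ribosome, was lower. It stood at 13908, 15195 and 17322 CPM in WT and at 11983, 10984 and 12715 CPM in MLST8-KO samples, a log2 fold change of -0.38 (SE 0.10, adjusted p = 0.0175). The groups did not overlap, and WT replicate 3 was the highest sample. The call was lost on the TPM scale (-0.27, adjusted p = 0.0955 by limma) and in 3 of the 6 fits that left out a sample. EEF1A1 has many processed pseudogenes, so its estimated counts are uncertain. Its tissue-restricted paralog EEF1A2 was low, at 3.12, 2.13 and 3.46 CPM in WT and 2.19, 3.77 and 6.02 CPM in MLST8-KO samples (log2 fold change 0.46, SE 0.34, adjusted p = 0.314). EEF1A2 made up 0.0341% ± 0.00787 of the summed EEF1A1 and EEF1A2 TPM in WT and 0.0604% ± 0.0265 in MLST8-KO cells (SD, n = 3; two-sided exact permutation p = 0.3). The exchange factor subunits EEF1B2, EEF1D and EEF1G and the related EEF1E1 did not pass, with log2 fold changes from -0.13 to -0.07.

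EEF2, the translocase, measured 1920, 2020 and 2414 CPM in WT and 1686, 1617 and 1936 CPM in MLST8-KO samples. The highest MLST8-KO sample was just above the lowest WT sample, and the log2 fold change of -0.28 (SE 0.11, adjusted p = 0.0663) missed the threshold. DESeq2 put the adjusted p of EEF2 at 0.0355, and without WT replicate 1 it was 0.0182 by edgeR. That was the only 1 of the 6 fits that left out a sample in which EEF2 passed. It did not pass under upper quartile scaling (adjusted p = 0.116 by edgeR) or on the TPM scale (adjusted p = 0.205 by limma). EEFSEC (chr3:128153454-128408646), the factor that delivers selenocysteine-tRNA, was the only elongation factor called higher. It measured 25.5, 25.3 and 20.9 CPM in WT and 31.9, 29.4 and 33.4 CPM in MLST8-KO samples, a log2 fold change of 0.40 (SE 0.11, adjusted p = 0.0202). The groups did not overlap, but the call was lost in 3 of the 6 fits that left out a sample.

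Whether the counting used strand is not stated, so reads of overlapping genes on the other strand could be counted with some factors. Of the exonic bases of EEFSEC, 15.3% overlap RUVBL1, and of those of EIF2B1, 14.8% overlap DDX55. The share was 10.0% for EIF3M (CCDC73), 7.5% for EIF4E2 (TIGD1) and 5.9% for EIF3J (SPG11). The remaining called factors shared at most 4.8% of their exonic bases with an expressed gene on the other strand.

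Levels per length spanned a wide range. EEF1A1 led with 8189 ± 760 TPM in WT, followed by EEF1G with 1849 ± 18.5, EIF1 with 1643 ± 275, EIF4A1 with 1274 ± 18.6 and EEF2 with 1253 ± 128 TPM (SD, n = 3). EEF1G and EIF1 did not differ beyond their spread, and neither did EIF4A1 and EEF2. In MLST8-KO cells EIF1, at 1080 ± 34.1 TPM, lay below EIF4A1 at 1120 ± 36.2 and EIF4G2 at 1140 ± 59.7 TPM, within their spread. EIF4E was among the lowest of the cap-binding genes in both groups. The 59 factors together took 24204, 25665 and 27305 TPM in the WT samples and 23131, 22251 and 23058 TPM in the MLST8-KO samples. All MLST8-KO samples were below all WT samples, the means differed by -11.3%, and the two-sided exact permutation p was 0.1, the smallest this design allows. EEF1A1 alone made up 31.8% of the WT sum. Without it the sums were 16772, 17483 and 18353 TPM in WT and 16245, 15811 and 16024 TPM in MLST8-KO samples, a difference of -8.61% (two-sided exact permutation p = 0.1). In CPM the sum over all factors differed by -17.0%. Both TPM and CPM are shares of a library, so these values do not measure the RNA per cell.

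**Figure D4:**
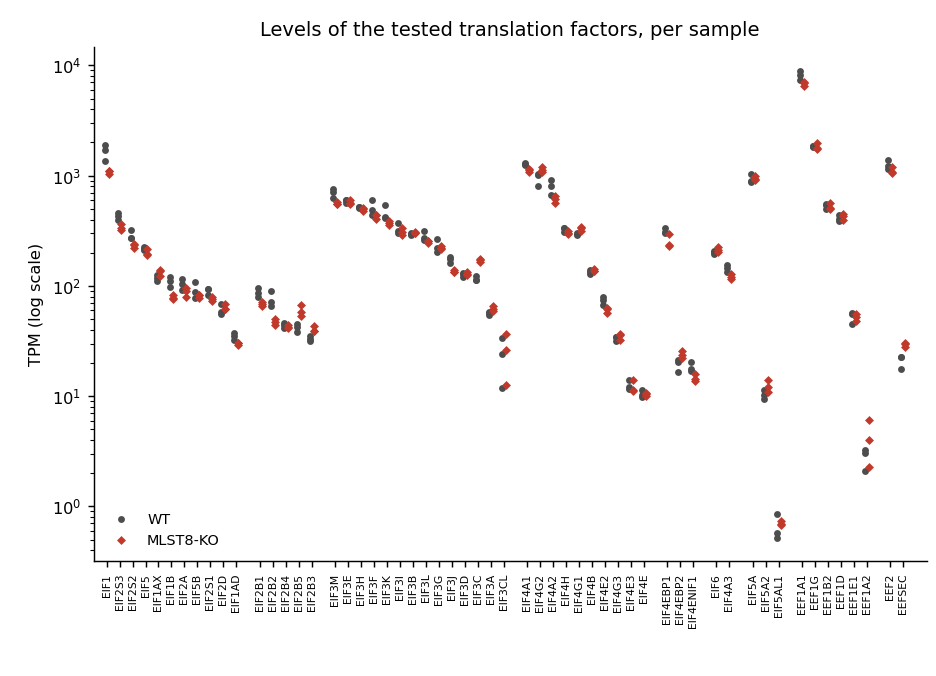
TPM (log scale) of each of the 56 tested factors in every sample, ordered within role by the WT mean (grey circles, WT; red diamonds, MLST8-KO; 3 samples each). EEF1A1 stands highest and EIF5AL1 lowest, and within most genes the groups lie close together compared with the range between genes.

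Other genes of the translation pathway were counted from lists that the rule of names does not hold. These lists, too, were chosen with earlier results of these data known. Of 60 tested in all, 22 were lower, 1 was higher and the median log2 fold change was -0.20, beside 15.7% lower and 16.3% higher of all genes tested. The factors of termination, ribosome rescue and recycling were the list in which every tested member was lower, 7 of 7, with a median of -0.29. GSPT2, also on this list, was too low to be tested, at 0.138 to 0.199 CPM in WT and 0.320 to 0.968 CPM in MLST8-KO samples. PELO, which recognises stalled ribosomes, measured 47.8, 48.6 and 56.7 CPM in WT and 31.8, 34.7 and 34.3 CPM in MLST8-KO samples (log2 fold change -0.60, SE 0.09, adjusted p = 0.00342). ETF1, the release factor eRF1 that reads the stop codon, measured 349, 413 and 463 CPM against 273, 287 and 291 CPM (-0.53, SE 0.10, adjusted p = 0.00586). MCTS1, which helps recycle the small subunit, and GSPT1, the GTPase eRF3, had log2 fold changes of -0.30 (adjusted p = 0.0329) and -0.29 (adjusted p = 0.0187). In all 7 genes every MLST8-KO sample was below every WT sample, which held for 24.2% of all genes tested. They were called by a test of these same values, so the gap is no separate support. PELO and ETF1 passed in all 6 fits that left out a sample, and the other 5 in 1 to 3 of them.

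Among the kinases and phosphatase subunits of eIF2, 3 of 6 were lower. PPP1R15B, the constitutive subunit that directs dephosphorylation of eIF2 alpha, had a log2 fold change of -0.66 (SE 0.11, adjusted p = 0.00397). Its stress-induced counterpart PPP1R15A had -0.47 (SE 0.13, adjusted p = 0.0222), and the kinase of the endoplasmic reticulum EIF2AK3 (PERK) had -0.51 (SE 0.15, adjusted p = 0.0265). PPP1R15B passed in all 6 fits that left out a sample, and PPP1R15A and EIF2AK3 in 3 of them. The kinases EIF2AK1, EIF2AK2 and EIF2AK4 did not pass. Of 7 genes listed as mTORC1 output, only MKNK2 was lower (-0.48, SE 0.10, adjusted p = 0.00909). MKNK2 encodes a kinase of eIF4E that MAP kinases activate. RPS6KB1, LARP1, PDCD4 and EEF2K were among the 6 that did not pass. Of 6 poly(A)-tail genes, only PABPC4, a poly(A)-binding protein, was lower (-0.48, SE 0.08, adjusted p = 0.00401). In lists as short as these last ones, a single lower gene is near the share of all genes tested (15.7%). MKNK2 and PABPC4 passed in all 6 fits that left out a sample.

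Of 15 enzymes that modify the factors, 5 were lower and 1 higher. EEF1AKMT4, a lysine methyltransferase of eEF1A, measured 93.7, 117 and 137 CPM in WT and 67.4, 64.5 and 69.5 CPM in MLST8-KO samples (-0.79, SE 0.12, adjusted p = 0.00344); it shares exons with a read-through gene to ECE2, and its count is uncertain. DPH3, DPH1 and DNAJC24, which take part in making diphthamide on eEF2, had log2 fold changes of -0.41 (adjusted p = 0.0143), -0.39 (adjusted p = 0.0197) and -0.35 (adjusted p = 0.0233). EEF2KMT, a methyltransferase of eEF2, had 0.37 (adjusted p = 0.0197). With a sample left out, EEF1AKMT4 passed in all 6 fits, DPH3 in 4, and DPH1, DNAJC24 and EEF2KMT in 3. Of 10 genes of the multisynthetase complex, 4 were lower, the synthetases RARS (-0.44, adjusted p = 0.0115), MARS (-0.36, adjusted p = 0.0112), EPRS (-0.30, adjusted p = 0.0280) and KARS (-0.26, adjusted p = 0.0257). Of 9 mitochondrial translation factors, only MTRF1L, a mitochondrial release factor, was lower (-0.39, adjusted p = 0.0345), and the 8 others did not pass. Of all genes tested, 15.7% were lower. RARS passed in 5 and MARS in 4 of the 6 fits that left out a sample, but EPRS, KARS and MTRF1L in only 1.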

How the data were processed

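RNA-seq of HCC2814 cells covered 3 WT and 3 MLST8-KO samples, and all 6 were used, grouped by their labels. After quality and adapter filtering, the authors used HISAT (GRCh38.p12) and Bowtie2 (reference genes) for alignment. What they deposited per gene were estimated counts, TPM and FPKM; the counting tool and its strand setting are not given in the sources used here. The estimated counts deposited by the authors are not normalized, and the deposited TPM and FPKM correct for gene length and sequencing depth. A table of the authors' own fold changes and p-values was not used.

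Of the count values 12.4% were not whole, so counts were rounded. MLST8-KO and WT were compared over 12951 genes with edgeR 4.0.16 (filterByExpr, TMM, glmQLFit and glmQLFTest; R 4.3.3), with Benjamini-Hochberg adjustment and a threshold of 0.05. SEs were the absolute log2 fold change over the square root of F. CPM values are TMM scaled. Single values per sample were compared by exact permutation over 20 splits. Alternatives were DESeq2 1.42.0, edgeR with DESeq2 size factors, edgeR with upper quartile scaling, no filter, a mean of at least 10 counts, limma 3.58.1 on log2(TPM + 1) and log2(TPM + 0.1), the replicate number as a block, and the omission of single samples; summing near-identical copies was added after seeing the data. On simulated counts for 12951 genes with 200 changed by a log2 fold change of 1, edgeR recovered 87% in the simulated direction, and unchanged genes made up 5.95% of what it called. The called factors all changed by less than the simulated size, and 4146 genes were called in the data. These rates therefore do not apply to the calls given here.

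Every pair of replicates differed by more than sampling noise (chi-square per gene 6.77 to 26.2). A floor of 3 counts covers counting error only. Of the 3 factors below the filter, values are given for EIF4EBP3 alone. Members and lists were chosen with earlier results of these data known. Factors past the threshold and a few named mRNA cap, eIF2, eIF5A and elongation genes are given per sample, the rest by counts and ranges, and each pathway list by up to 4 called members with the largest changes. Gene coordinates are from GENCODE 29 (GRCh38), and start sequences from RefSeq (GRCh38.p14). Figures were drawn with matplotlib 3.10.9.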

Additional observations from a re-analysis of the deposited data

How the results depend on the processing

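The count of 20 lower factors held within 1.5 times under DESeq2 (24, with 14.6% of all genes lower), DESeq2 size factors (20), upper quartile scaling (18), no filter (20), a mean of at least 10 counts (20) and summed copies (20). It fell to 12 with limma on log2(TPM + 1) and to 12 on log2(TPM + 0.1), where 1134 and 1132 of all genes were lower, 2782 and 2764 were higher, and the median of all genes moved to 0.092 and 0.104. Upper quartile scaling made 2546 of all genes higher and 1559 lower. Leaving out each sample in turn gave 9 to 24 lower and 1 to 3 higher factors, and 850 to 2651 lower and 971 to 2692 higher genes in all; the lowest counts of lower factors came without MLST8-KO replicate 2 (9), MLST8-KO replicate 1 (11) and WT replicate 2 (11). Of the 23 called factors, 9 passed in all 6 such fits, and 0 turned sign. Some factors near 0 that had not passed changed sign: EIF3CL to -0.27 without WT replicate 2 and to -0.35 without MLST8-KO replicate 3 (-0.35 to 0.41 over all fits that left out a sample), EIF2D, EIF6 and EIF5AL1 when single samples were left out (-0.11 to 0.06, -0.08 to 0.02 and -0.13 to 0.28), and EIF5A to 0.02 with limma on either TPM scale. The cause was not tested.

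With the replicate number as a block, 22 factors were lower and 3 higher, and 2157 genes were lower and 2261 higher in all. EEF2 and EIF3L were gained, and no call was lost. Same-numbered samples deviated together with r = 0.105, 0.057 and 0.14 over 12951 genes, and every sample correlated best with its own number. Since 1 pair was under 0.1, the numbers were not taken as a pairing.

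Differences in the summed factor level, the 4E-BP ratio and the EEF1A2 share kept their direction in TPM, CPM and FPKM, but 3 samples a group allow no p under 0.1 for these values.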
